A study of Mus musculus with 10 samples.

Results

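The surrogate light chain genes of the mouse were followed library by library in sorted bone marrow cells. The set holds 4 genes, Igll1, Vpreb1, Vpreb2 and Vpreb3, picked by gene symbol from the 23420 genes counted in each library. All 4 passed the filter on low counts that left 14161 genes for testing.

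The cells were small pre-B cells and pro-B cells from the bone marrow of C57BL/6 mice, in 4 groups. Small pre-B cells, sorted as B220+ IgM- CD43- cells of small size, gave 3 libraries with the genotype Mta2_VavKO (here Mta2 KO) and 3 control libraries. Pro-B cells, sorted as B220+ IgM- CD43+ cells, gave 2 Mta2 KO and 2 control libraries. Mta2 is a subunit of the NuRD complex, which removes histone acetyl groups and moves nucleosomes. The Vav promoter that the genotype names is active in blood cells in general, so the knockout is not limited to B cells. The labels give neither the alleles the controls carry nor the age or number of the mice, and nothing says that the libraries of a group came from separate animals. The p-values therefore measure the spread between libraries, which may in part be technical.

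Igll1 encodes lambda5, the constant-like piece of the surrogate light chain, and Vpreb1 and Vpreb2 each encode VpreB, its variable-like piece. Both pieces join an immunoglobulin mu heavy chain and the signalling chains Cd79a and Cd79b to form the pre-B cell receptor, which tests whether a newly made heavy chain can pair. The genes are known to be active in pro-B cells and large cycling pre-B cells and to be shut off as the cells become small pre-B cells and rearrange their light chain genes. Vpreb3 is a related gene whose protein binds newly made mu chains inside the cell and is not part of the receptor at the surface.

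Igll1 and Vpreb1 are neighbours on chromosome 16, and Vpreb2 lies farther along the same chromosome. In the mm10 exon models that the counts rest on, Igll1 covers 16860671 to 16863985 on the minus strand, with 3 exons of 870 bases in all. Vpreb1 begins 4415 bases beyond it, at 16868401 to 16869255 on the minus strand, with 2 exons of 768 bases. Vpreb2 lies 1111309 bases beyond Vpreb1, at 17980565 to 17981080 on the plus strand, and its 2 exons of 429 bases hold coding sequence alone. Vpreb3 is on chromosome 10, 75948312 to 75949646, plus strand, with 2 exons of 602 bases.

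Vpreb1 and Vpreb2 are near-identical copies, which bears on how well their counts can be parted. Their coding sequences of 429 bases differ at 9 bases (97.9% identity), and the longest identical run is 196 bases. The most divergent stretch, coding bases 268 to 387 of the GENCODE M21 transcripts, shows 6 of the 9 differences in capitals.
Vpreb1 coding 268-387: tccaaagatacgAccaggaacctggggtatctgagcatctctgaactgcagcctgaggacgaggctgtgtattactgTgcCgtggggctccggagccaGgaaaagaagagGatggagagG
Vpreb2 coding 268-387: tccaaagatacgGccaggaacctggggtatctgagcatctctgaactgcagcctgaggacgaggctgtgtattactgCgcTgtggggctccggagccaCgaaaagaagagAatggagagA
Of all windows of 50 coding bases, 42.6% read the same in both transcripts, and of windows of 100 bases 29.4% did. The read length is not given in the sources used here, so the share of reads that could not be assigned to either gene is unknown. Vpreb1 and Vpreb2 counts are uncertain to that extent. Vpreb2 was counted over coding bases alone, whereas over the whole Vpreb1 transcript 32.5% of windows of 50 bases are shared. Their levels per length and their ratio carry this difference. With the counts of both genes summed, the sum was not called in any comparison, as neither gene was in the main fit. Summing cannot bring back reads assigned to neither gene, and most counts in the sum are those of Vpreb1.

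The promoters of the 4 genes, from 250 bases before to 50 bases after the start in RefSeq GRCm38.p6, are shown because 3 of the genes had like profiles over the libraries and Vpreb3 had another. Capitals mark E-boxes (CANNTG, the letters bound by E proteins such as Tcf3), an EBF core (CCCNNGGG) and the octamer ATTTGCAT, searched on both strands. Igll1 lies at chr16:16863936-16864235 (minus strand), Vpreb1 at chr16:16869206-16869505 (minus strand), Vpreb2 at chr16:17980315-17980614 (plus strand) and Vpreb3 at chr10:75948050-75948349 (plus strand).
Igll1 promoter: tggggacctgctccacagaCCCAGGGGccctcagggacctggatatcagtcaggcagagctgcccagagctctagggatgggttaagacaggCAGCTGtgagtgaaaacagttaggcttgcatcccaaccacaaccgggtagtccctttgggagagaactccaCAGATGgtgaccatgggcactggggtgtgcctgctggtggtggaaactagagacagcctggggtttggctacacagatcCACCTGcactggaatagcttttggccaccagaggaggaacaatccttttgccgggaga
Vpreb1 promoter: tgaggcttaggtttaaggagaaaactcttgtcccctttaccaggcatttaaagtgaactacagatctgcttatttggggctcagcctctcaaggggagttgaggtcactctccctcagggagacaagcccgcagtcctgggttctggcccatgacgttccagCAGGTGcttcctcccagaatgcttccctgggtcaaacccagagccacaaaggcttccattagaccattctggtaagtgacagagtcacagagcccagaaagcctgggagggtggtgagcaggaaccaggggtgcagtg
Vpreb2 promoter: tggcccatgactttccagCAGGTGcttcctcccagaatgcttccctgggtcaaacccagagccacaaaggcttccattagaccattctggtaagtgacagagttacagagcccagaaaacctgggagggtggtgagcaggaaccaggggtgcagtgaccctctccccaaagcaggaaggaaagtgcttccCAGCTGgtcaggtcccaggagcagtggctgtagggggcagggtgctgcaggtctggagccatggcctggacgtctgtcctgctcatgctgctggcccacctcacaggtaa
Vpreb3 promoter: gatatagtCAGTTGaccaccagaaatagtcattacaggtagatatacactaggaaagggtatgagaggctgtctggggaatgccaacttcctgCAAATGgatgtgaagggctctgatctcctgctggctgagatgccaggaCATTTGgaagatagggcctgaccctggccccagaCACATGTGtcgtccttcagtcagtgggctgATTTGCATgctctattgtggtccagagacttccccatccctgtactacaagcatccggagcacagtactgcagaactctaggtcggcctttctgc
The Igll1 window held 3 E-boxes and 1 EBF core, the Vpreb1 window 1 E-box and the Vpreb2 window 2 E-boxes. The Vpreb3 window held 5 E-boxes, 2 of which overlap in CACATGTG, and the only octamer of the set. Of 32544 promoters of the same length, 72.3% held an E-box, 13.7% an EBF core and 1.75% the octamer. The Ikaros core TGGGAA was found once, in the Vpreb2 window, against 25.4% of all promoters. The RefSeq start of Vpreb2 lies at the start codon. Bases -250 to -95 of the Vpreb2 window align with bases -106 to 49 of the Vpreb1 window at 153 of 156 positions (98.1%). The Ikaros core of Vpreb2 and its E-box nearer the start lie past that stretch, in sequence that the Vpreb1 window does not reach. The motif counts of Vpreb1 and Vpreb2 therefore cannot be compared, since their windows cover different parts of the copies.

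Library totals ran from 17805507 to 52127004 counts, and 3 counts, taken as the floor of detection, equal 0.0576 to 0.168 counts per 1e6 counts (CPM; levels below are CPM scaled between libraries by TMM). Mta2 itself was lower in every Mta2 KO library than in every control of its cell type. Its level was 179 to 199 CPM in small pre-B KO libraries, against 246 to 438 CPM in controls. The log2 fold change was -0.93 (SE 0.19) with an adjusted p of 0.042 by edgeR's quasi-likelihood test, and with any 1 library left out the call held only without small pre-B control 2. Among pro-B libraries the level was 162 and 166 CPM with the knockout, against 436 and 375 CPM in controls (-1.31, SE 0.24, adjusted p = 0.212). The counts cover all exons of Mta2, and the labels do not say which of them are deleted. Where the remaining Mta2 counts come from was not tested.

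Some libraries stood apart. In small pre-B control 3, the 68 histone genes listed made up 0.953% of the counts and Malat1, a nuclear RNA, 1.401%. No other library exceeded 0.0399% for the histone genes or 0.290% for Malat1. Small pre-B KO libraries 1 and 2 held 2518 and 2942 CPM of Xist, which coats the inactive X chromosome, and 8.13 and 0.0790 CPM of 4 summed Y-linked genes. The other 8 libraries held at most 31.4 CPM of Xist and 224 to 674 CPM of the Y-linked genes. Judged by these RNAs, sex goes in part with genotype among small pre-B libraries, and the effects of sex and genotype cannot be fully told apart there. The knockout and stage differences of the 4 genes are given below with and without those of the libraries standing apart that enter them.

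The pro-B libraries also held RNA of other cells, which matters for every comparison between the stages. The 8 myeloid markers summed to 87.2 to 284 CPM in the 6 small pre-B libraries, against 3906 to 8901 CPM in the 4 pro-B libraries. For the 5 markers of plasmacytoid dendritic cells, which can carry B220, the sums were 13.6 to 37.4 CPM in small pre-B and 2547 to 2861 CPM in pro-B libraries. The B lineage genes Cd79a, Pax5 and Ebf1 summed to 2190 to 2781 CPM in small pre-B and 380.5 to 624 CPM in pro-B libraries. Ptprc, also in the B lineage list, ran the other way, at 576 to 939 against 941.5 to 1043 CPM. With Ptprc added, the sums were 2923 to 3401 CPM in small pre-B and 1409 to 1584 CPM in pro-B libraries. No marker of these lists was at 0 in a group. In such bulk samples, fewer cells of a type and less RNA per cell cannot be told apart. The 10 cycling markers summed to 877 to 2786 CPM in small pre-B and 4051 to 5382 CPM in pro-B libraries.

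**Figure D1:**
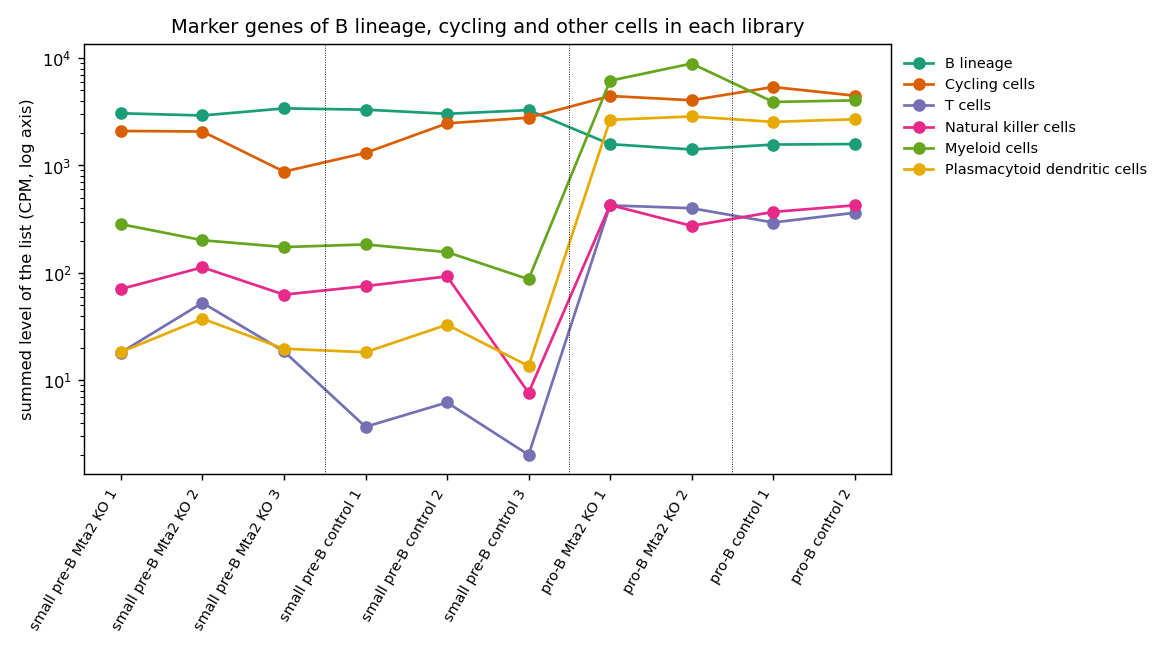
Summed level (CPM, log axis) of the B lineage, cycling, T cell, natural killer, myeloid and plasmacytoid dendritic marker lists in each of the 10 libraries. Dotted lines lie between the 4 groups, and the B lineage list here includes Ptprc. Myeloid sums are at most 284 CPM in small pre-B libraries and 3906 to 8901 CPM in pro-B libraries, while B lineage sums run the other way.

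Per length, Vpreb3 was the most abundant of the 4 RNAs in small pre-B cells and Vpreb2 the least abundant in every group. In CPM per kilobase of exon, the small pre-B KO means were 1294 ± 242 for Vpreb3, 359 ± 150 for Igll1, 229 ± 97.9 for Vpreb1 and 27.5 ± 10.8 for Vpreb2 (SD, n = 3). In small pre-B controls they were 1299 ± 250.3, 149 ± 78.6, 93.9 ± 63.2 and 10.4 ± 6.37 in the same gene order (SD, n = 3), and without control 3 1373 ± 303, 190 ± 46.1, 127 ± 39.6 and 14.0 ± 0.736 (SD, n = 2). In both groups the spreads of Igll1 and Vpreb1 overlapped. Pro-B KO libraries had 234 ± 58.6 for Igll1, 200.1 ± 62.3 for Vpreb3, 107 ± 27.2 for Vpreb1 and 16.1 ± 0.833 for Vpreb2 (SD, n = 2). Pro-B controls had 330.3 ± 58.2 for Vpreb3, 264 ± 14.2 for Igll1, 111 ± 9.26 for Vpreb1 and 19.6 ± 1.52 for Vpreb2 (SD, n = 2). Igll1 and Vpreb3 were thus close to each other in both pro-B groups and far apart in both small pre-B groups.

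**Figure D2:**
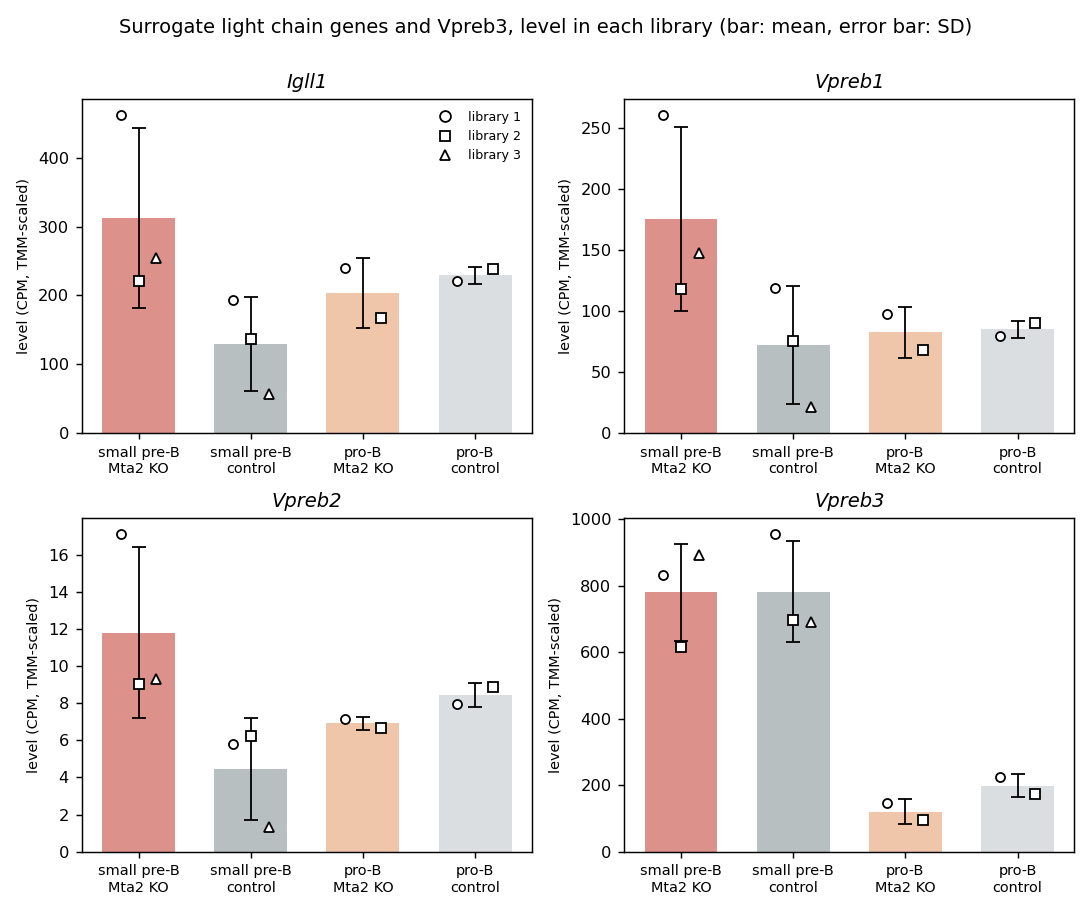
Level (CPM, TMM-scaled) of the 4 genes in each library, by group, with bars for the group mean, error bars for the SD and symbols for libraries 1 to 3. Igll1, Vpreb1 and Vpreb2 are highest in small pre-B KO library 1 and lowest in small pre-B control 3, while Vpreb3 separates the cell types, at 615 to 956 CPM in small pre-B against 94.0 to 224 CPM in pro-B libraries.

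The knockout comparison in small pre-B cells asks what loss of Mta2 changes at the stage where the surrogate light chain genes are normally shut off. Mean levels of Igll1, Vpreb1 and Vpreb2 were 2.42 to 2.67 times as high in Mta2 KO as in control libraries, and none of the 3 passed the test. Vpreb3 had equal means in both groups to within 1%. In this comparison 3.02% of all tested genes were called at an adjusted p below 0.05, so 0 of 4 called members is not apart from that background.

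Igll1 was at 462, 221 and 254 CPM in the 3 small pre-B KO libraries, against 194, 137 and 57.6 CPM in the 3 controls. All 3 KO libraries lay above all 3 controls, which 13.3% of tested genes also did. The log2 fold change was 1.27 (SE 0.42), with an adjusted p of 0.113 and an unadjusted p of 0.0135 (edgeR quasi-likelihood). Under DESeq2, which called 1821 of 14282 genes in this comparison, Igll1 passed, at 1.26 with an adjusted p of 0.0203.

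Vpreb1 was at 260.7, 118.2 and 148 CPM in KO libraries, against 118.7, 75.7 and 21.8 CPM in controls. The groups overlapped through KO library 2 and control 1, which differed by less than 1 CPM. Its log2 fold change was 1.29 (SE 0.52, adjusted p = 0.171, edgeR quasi-likelihood), and DESeq2 did not call it either.

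Vpreb2, the scarcest, was at 17.1, 9.01 and 9.28 CPM in KO libraries, against 5.80, 6.24 and 1.31 CPM in controls. The KO libraries again lay above the controls, and the counts behind these values were 199 to 297 in KO and 46 to 155 in control libraries. The log2 fold change was 1.42 (SE 0.50, adjusted p = 0.132, edgeR quasi-likelihood). DESeq2 called Vpreb2 at 1.402 with an adjusted p of 0.0352, among the 1821 genes it called in this comparison.

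Vpreb3 was at 830.4, 615 and 892 CPM in KO libraries, against 956, 698 and 692 CPM in controls. The groups overlapped throughout, and the log2 fold change was -0.0048 (SE 0.22, adjusted p = 0.995, edgeR quasi-likelihood).

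The size of the difference in Igll1, Vpreb1 and Vpreb2 depended on 1 library at either end. KO library 1 held the highest and control 3 the lowest level of each gene, 8.03 times apart for Igll1, 11.9 times for Vpreb1 and 13.1 times for Vpreb2. Without control 3, the log2 fold changes were 0.92, 0.85 and 0.96 for Igll1, Vpreb1 and Vpreb2, with adjusted p of 0.152, 0.204 and 0.117. Without KO library 1 they were 0.88, 0.89 and 1.05, with adjusted p of 0.294, 0.405 and 0.325. Without KO libraries 1 and 2, which hold Xist, they were 0.98, 1.04 and 1.08, with the spread of the lone KO library taken from the other groups. All 3 stayed positive in each of these edgeR fits, and none passed. Vpreb3 was at -0.09 without control 3 and at 0.20 without KO libraries 1 and 2.

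Of the 5 pro-B stage markers, only Kit passed in this comparison, and the list had no common direction. Small pre-B KO libraries had 81.9, 50.9 and 36.3 CPM of Kit, the stem cell factor receptor of pro-B cells, against 14.9, 10.9 and 3.64 CPM in controls. Kit rose, with a log2 fold change of 2.54 (SE 0.47) and an adjusted p of 0.0317 by edgeR's quasi-likelihood test. Dntt, which adds bases at heavy chain joins, was at 824, 311 and 419 CPM in KO libraries, against 394, 212 and 62.9 CPM in controls (1.22, SE 0.57, adjusted p = 0.221). The Dntt difference was 0.77 without control 3, 0.71 without KO library 1 and 0.91 without KO libraries 1 and 2. Both genes were lowest in control 3 and highest in KO library 1, as Igll1, Vpreb1 and Vpreb2 were and Vpreb3 was not. The other 3 markers had log2 fold changes of 0.33 (Flt3, SE 0.44), -0.25 (Spn, SE 0.19) and -0.34 (Cd93, SE 0.15), with adjusted p of 0.676, 0.436 and 0.192. Cd93 was at 1088 to 1272 CPM in KO libraries, against 1337 to 1831 CPM in controls. The median of the list was 0.33, against 0.01 over all tested genes.

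Il2ra, the CD25 chain that marks pre-B cells, was at 144, 120.4 and 152 CPM in KO libraries, against 437, 263 and 369 CPM in controls. It fell, with a log2 fold change of -1.36 (SE 0.23) and an adjusted p of 0.0259 by edgeR's quasi-likelihood test, and was the only called gene of the 6 markers of pre-B and later stages. Cd2, an adhesion receptor, had -1.45 (SE 0.35, adjusted p = 0.058). The other 4 had positive log2 fold changes without a call, at 0.78 for Ms4a1, 0.21 for Cd74, 0.12 for H2-Aa and 0.07 for Cd22, and the median of the 6 was 0.09. With 1 library left out, the log2 fold change of Kit was 2.13 to 2.97 and that of Il2ra -1.54 to -1.19. The Kit call was lost without any of the 4 pro-B libraries, control 1, KO 1 or KO 2 (adjusted p up to 0.104). The Il2ra call was lost without the same libraries or KO 3 (adjusted p up to 0.0969). Without KO libraries 1 and 2 together, Kit was at 1.91 and Il2ra at -1.23 (adjusted p of 0.212 and 0.217). Of the 10 cycling markers 0 were called here, with a median log2 fold change of -0.24. T cell markers summed to 18.1 to 52.6 CPM in KO and 2.02 to 6.20 CPM in control libraries, with 4 of 6 called higher. The part of cell composition in the Igll1, Vpreb1 and Vpreb2 difference was not tested.

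In pro-B cells the comparison asks the same of the stage where the surrogate light chain is normally made. None of the 4 genes passed, and 0.0353% of all tested genes (5 genes) did, while 913 had an unadjusted p below 0.05.

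Igll1 was at 239.6 and 168 CPM in pro-B KO libraries, against 221 and 238 CPM in controls. The control values fell between those of the KO libraries, and the log2 fold change was -0.17 (SE 0.50, adjusted p = 1, edgeR quasi-likelihood). Vpreb1 had the same arrangement, at 97.3 and 67.8 CPM in KO libraries against 80.0 and 90.05 CPM in controls (-0.04, SE 0.62, adjusted p = 1). Vpreb2 was at 7.17 and 6.66 CPM in KO libraries, against 7.97 and 8.89 CPM in controls (-0.28, SE 0.59, adjusted p = 1), with no overlap between the groups.

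Vpreb3 was at 147 and 94.0 CPM in pro-B KO libraries, against 224 and 174 CPM in pro-B controls. Both KO libraries lay below both controls, as they did for 28.1% of tested genes, and the log2 fold change was -0.72 (SE 0.27, adjusted p = 0.619, edgeR quasi-likelihood). The sum of Cd79a, Pax5 and Ebf1 was 536 and 380.5 CPM in KO libraries, against 624 and 571 CPM in controls, and the myeloid sum 6162 and 8901 CPM against 3906 and 4039 CPM. Per count of those 3 genes, Vpreb3 stood at 0.261 ± 0.0191 in KO and 0.332 ± 0.0376 in control libraries (SD, n = 2).

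The test of whether the knockout effect differs between the stages called 0% of genes with edgeR, where 907 genes had an unadjusted p below 0.05 and DESeq2 called 56. The difference, small pre-B effect minus pro-B effect, was 1.45 (SE 0.65) for Igll1, 1.33 (SE 0.81) for Vpreb1, 1.70 (SE 0.78) for Vpreb2 and 0.72 (SE 0.35) for Vpreb3. Adjusted p lay between 0.768 and 0.790 (edgeR quasi-likelihood), so an effect limited to small pre-B cells was not shown.

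**Figure D3:**
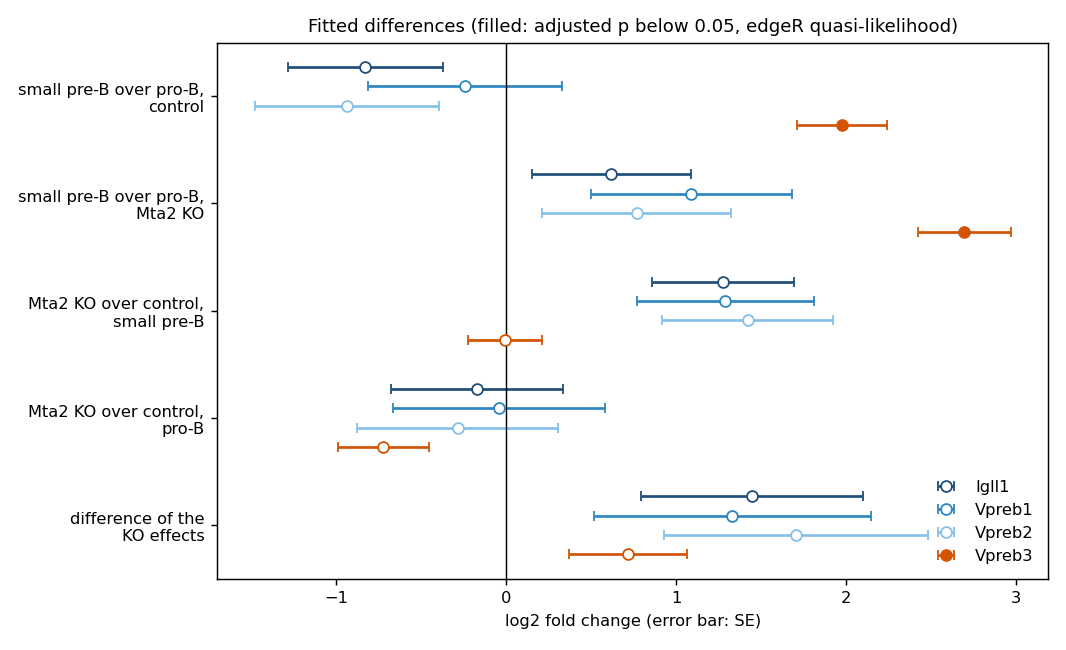
Fitted log2 fold changes (horizontal axis, error bars SE) of the 4 genes in the 5 comparisons, filled where the adjusted p is below 0.05. Only Vpreb3 is filled, at 1.98 and 2.69 for small pre-B over pro-B cells, and Igll1, Vpreb1 and Vpreb2 lie between 1.27 and 1.42 for the knockout in small pre-B cells with no call.

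The stage comparison was made within each genotype and shares its libraries with the knockout comparisons. On the scale of whole libraries, Vpreb3 was higher in small pre-B than in pro-B cells and the other 3 genes were not called. Among all tested genes, 55.4% were called in controls and 51.3% in Mta2 KO cells, so a call is common here. In small pre-B cells 26% were called higher and 29.4% lower in controls, and 24% and 27.3% in Mta2 KO cells.

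In controls Vpreb3 rose, with a log2 fold change of 1.98 (SE 0.26) and an adjusted p of 0.00027 by edgeR's quasi-likelihood test, at 692 to 956 CPM in small pre-B and 174 to 224 CPM in pro-B libraries. In Mta2 KO cells it rose by 2.69 (SE 0.27, adjusted p = 6.01e-05), at 615 to 892 CPM in small pre-B against 94.0 to 147 CPM in pro-B libraries. All small pre-B libraries lay above the pro-B libraries, as they did for 34.1% of tested genes in controls and 36.5% in KO cells. Without small pre-B control 3 the difference in controls was 2.06, and without small pre-B KO libraries 1 and 2 that in KO cells was 2.89 (adjusted p of 0.000215 and 0.00114).

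For Igll1, control small pre-B libraries at 57.6 to 194 CPM lay below control pro-B libraries at 221 to 238 CPM, with a log2 fold change of -0.83 (SE 0.45, adjusted p = 0.147, edgeR quasi-likelihood). Vpreb2 also lay lower, at 1.31 to 6.24 against 7.97 to 8.89 CPM (-0.94, SE 0.54, adjusted p = 0.167). Among all tested genes, 38.9% had small pre-B controls wholly below pro-B controls. Vpreb1 overlapped between the stages in controls (-0.24, SE 0.57, adjusted p = 0.735), and without small pre-B control 3 its difference was 0.20, with -0.47 for Igll1 and -0.48 for Vpreb2. In Mta2 KO cells the 3 differences were positive, at 0.62 (SE 0.47) for Igll1, 1.09 (SE 0.59) for Vpreb1 and 0.77 (SE 0.55) for Vpreb2, with adjusted p of 0.152 to 0.295. Without small pre-B control 3, Vpreb1 and Vpreb2 passed in that comparison (adjusted p of 0.0194 and 0.0384), with log2 fold changes of 1.09 and 0.77. That library is not in the comparison and enters it only through the shared fit, in which 8657 of 13811 genes were then called. Without small pre-B KO libraries 1 and 2 the 3 differences were 0.32, 0.84 and 0.42, without a call.

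Set against B lineage RNA, Igll1, Vpreb1 and Vpreb2 were lower in small pre-B than in pro-B cells, as most genes were, and Vpreb3 was not called. On this scale 86.9% of all tested genes were called lower in controls and 91.4% in KO cells, so being lower is near the background. For each library the counts of a gene were divided by the summed counts of Cd79a, Pax5 and Ebf1. This scale was chosen after the composition of the libraries was seen and leaves out Ptprc, which was not higher in small pre-B cells. Igll1 stood at 0.186, 0.101 and 0.0914 counts per B lineage count in small pre-B KO libraries and at 0.0744, 0.0595 and 0.0246 in small pre-B controls. In pro-B cells it stood at 0.447 and 0.4403 in KO libraries and at 0.353 and 0.417 in controls. All 4 pro-B libraries lay above all 6 small pre-B libraries on this scale, and the same held for Vpreb1, for Vpreb2 and for 87.7% of all tested genes. Vpreb1 averaged 0.0707 ± 0.0296 in small pre-B KO libraries and 0.0293 ± 0.0184 in small pre-B controls (SD, n = 3 each), against 0.1797 ± 0.00234 in pro-B KO libraries and 0.143 ± 0.0210 in pro-B controls (SD, n = 2 each). Vpreb2 averaged 0.00478 ± 0.00187 and 0.00183 ± 0.00113 in small pre-B KO and control libraries, against 0.0154 ± 0.00293 and 0.0142 ± 0.00199 in pro-B KO and control libraries. Vpreb3 ranged from 0.247 to 0.367 over all 10 libraries on this scale.

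**Figure D4:**
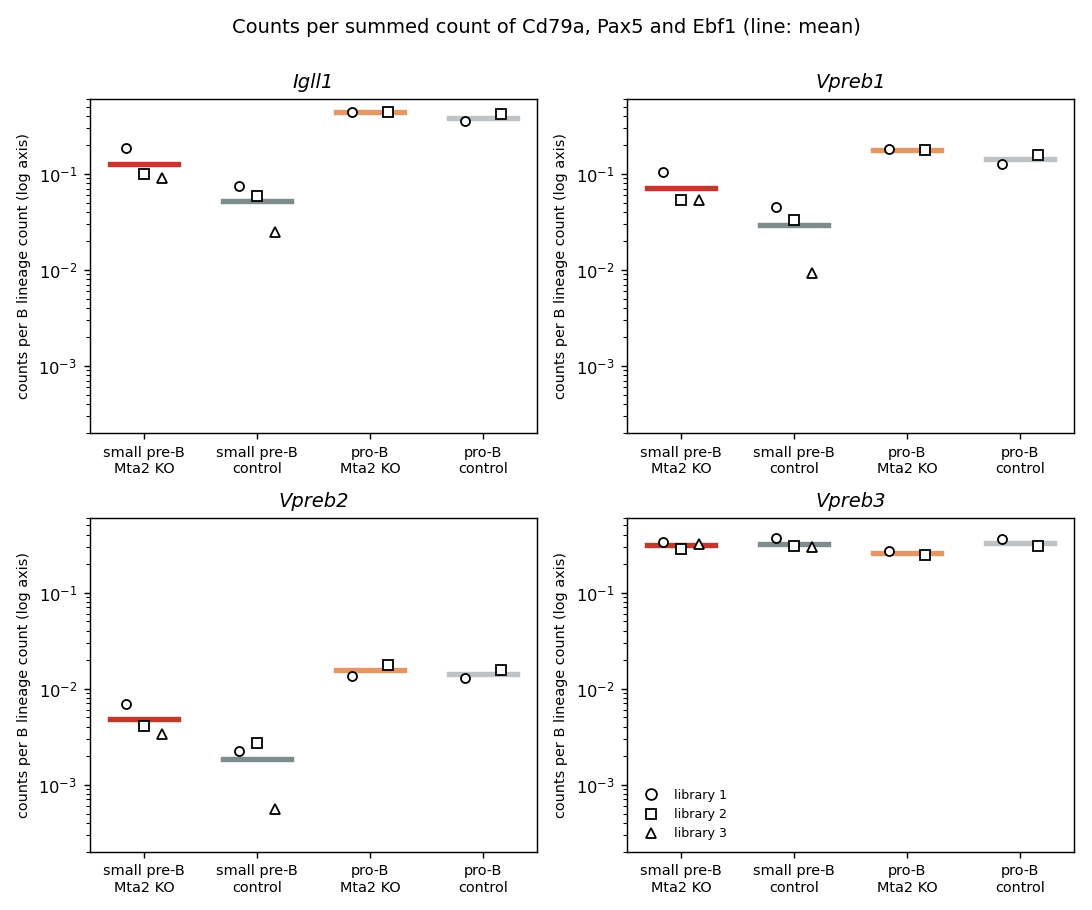
Counts of each gene per summed count of Cd79a, Pax5 and Ebf1 (log axis, the same in all panels), by group, with a line for the group mean and symbols for libraries. Igll1, Vpreb1 and Vpreb2 are lower in all 6 small pre-B than in all 4 pro-B libraries, as 87.7% of tested genes are, and Vpreb3 lies between 0.247 and 0.367.

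With the edgeR fit scaled to those B lineage counts, Igll1 fell by 2.87, Vpreb1 by 2.29 and Vpreb2 by 2.96 on the log2 scale in control small pre-B cells, with adjusted p of 8.68e-05, 0.00427 and 0.000229. In Mta2 KO cells they fell by 1.815, 1.35 and 1.69, with adjusted p of 0.00179, 0.0455 and 0.00844. Vpreb3 was not called, at -0.04 in controls (adjusted p = 0.85) and 0.26 in KO cells (adjusted p = 0.247). This scale moved the median of all tested genes to -2.03 in controls and -2.48 in KO cells. Relative to that shift the differences are close to those of the whole-library scale. Which scale describes the B lineage cells themselves was not tested, and the knockout difference in small pre-B cells was 1.26, 1.27 and 1.39 for Igll1, Vpreb1 and Vpreb2 on it, without a call.

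The ratios between the genes within a library do not depend on the scale. Igll1 over Vpreb1, per length, was 1.52 to 1.65 in small pre-B KO libraries and 1.44 to 2.33 in small pre-B controls. It was 2.17 to 2.18 in pro-B KO libraries and 2.33 to 2.43 in pro-B controls. The 2.33 among small pre-B controls was that of control 3, and controls 1 and 2 stood at 1.44 and 1.60. Vpreb2 over Vpreb1 was 0.0874 to 0.148 over the 6 small pre-B libraries and 0.132 to 0.178 over the 4 pro-B libraries, which overlap. Vpreb3 over Igll1 spread most, at 2.60 to 5.07 in small pre-B KO libraries, 7.13 to 17.4 in small pre-B controls, 0.811 to 0.887 in pro-B KO libraries and 1.06 to 1.46 in pro-B controls. Its 4 groups did not overlap, and the highest value was that of small pre-B control 3. How many other pairs of genes separate the groups in this way was not tested. Single genes often separate 2 groups. Small pre-B controls lay wholly above pro-B controls for 34.1% of tested genes, and small pre-B KO libraries above their controls for 13.3%.

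Across the 10 libraries the profiles of Igll1, Vpreb1 and Vpreb2 were alike and that of Vpreb3 was not. Likeness was measured as the root mean square difference of log2 CPM, each gene centred on its own mean, among 10786 genes with a mean of at least 2 CPM. Igll1 and Vpreb2 differed by 0.26, Igll1 and Vpreb1 by 0.29, and Vpreb1 and Vpreb2 by 0.33, whereas Vpreb3 differed from the 3 by 1.32 to 1.54. The median over all genes was 0.85 for Igll1 and 1.22 for Vpreb3. These distances share the libraries and their scaling and carry no test.

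The genes nearest to Igll1 were Trib3 (0.22), a pseudokinase, then Vpreb2 and Frmd6 (0.27), a FERM-domain protein. Nearest to Vpreb1 were Mmrn1 (0.25), Shc4 (0.26), a Shc-family adaptor, and Trib3 (0.27). After Igll1, Vpreb2 was nearest to Tnfsf10 (0.28), the TRAIL ligand, and Shc4 (0.31). The genes nearest to Vpreb3 were Lig4 (0.18), the DNA ligase that seals V(D)J joins, Neil1 (0.18), a DNA glycosylase, and Ccr7 (0.18), a chemokine receptor. Their log2 differences between small pre-B and pro-B cells were 2.07, 2.12 and 2.18 in controls and 2.67, 2.48 and 2.49 in Mta2 KO cells. These are given as a description, since the same libraries chose the genes.

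**Figure D5:**
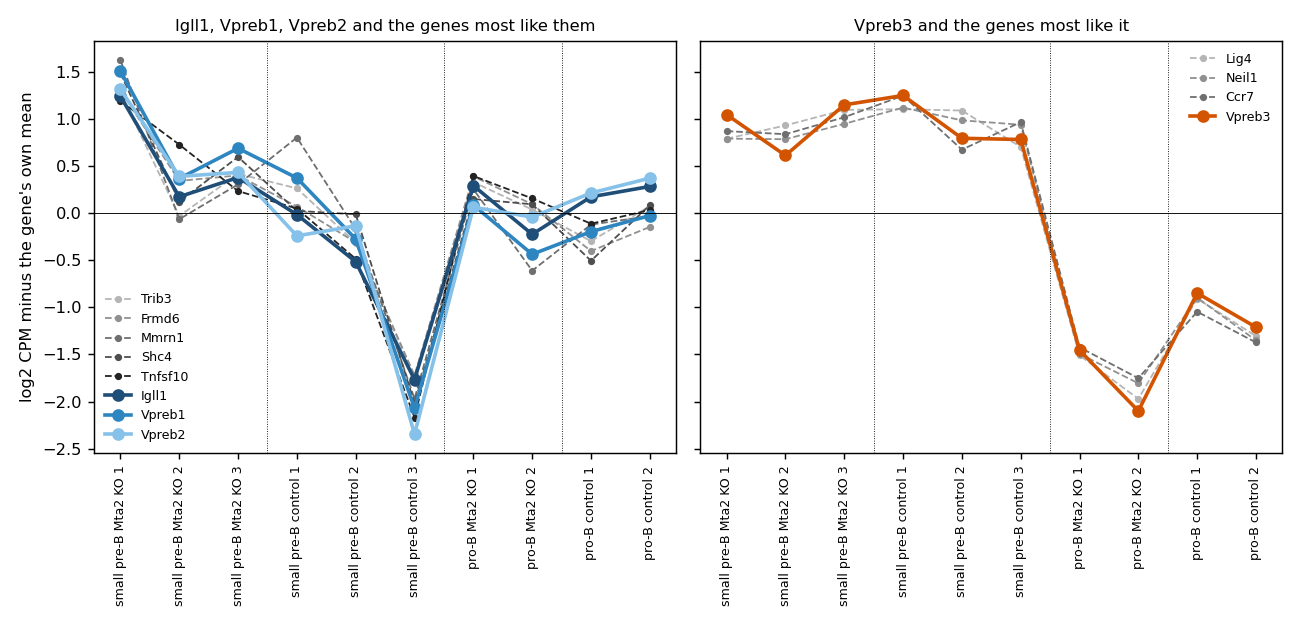
Log2 CPM minus each gene's own mean in the 10 libraries, for Igll1, Vpreb1 and Vpreb2 with the genes most like them (left) and for Vpreb3 with the genes most like it (right). The left profiles peak in small pre-B KO library 1 and dip in small pre-B control 3, and the right profiles step between the cell types.

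Other genes of the pre-B cell receptor and of surrogate light chain gene control were taken as a list of 20, of which 19 were tested. In the stage comparison, 14 of 19 were called higher and 3 lower in control small pre-B cells, with a median log2 fold change of 1.43 against -0.02 over all tested genes. In Mta2 KO cells 14 were called higher and 4 lower, with a median of 1.48, and without either pro-B KO library 2 were called lower. Scaled to B lineage genes, 1 was called higher and 10 lower in controls, and 1 and 11 in KO cells. The scale itself uses 3 of these genes.

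Among the receptor partners, Cd79b rose by 2.79 in controls and 2.83 in KO cells (adjusted p of 4.32e-05 and 3.80e-05, edgeR quasi-likelihood). Of the kinases and adaptors, Blk, a Src-family kinase, rose by 1.95 and 2.56, and Syk, the kinase that docks on the receptor, by 1.87 and 1.48. Fyn, a Src-family kinase that T cells also use, fell by 3.06 and 2.35. Of the 9 transcription factors, 7 were called higher and 1 lower in either genotype. Foxo1 rose by 1.95 and 2.13 and Ikzf3, an Ikaros family member linked to silencing of surrogate light chain genes, by 2.42 and 2.63. The activators Ebf1 and Tcf3 rose as well, by 2.175 and 2.31 and by 1.43 and 1.79, and Pax5 rose by 2.265 and 2.96. Irf8 fell by 3.38 and 3.50, and it was at 2358 to 2980 CPM in the pro-B libraries that hold RNA of plasmacytoid dendritic cells, which also express it.

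In the knockout comparisons 0 of the 19 genes were called in small pre-B cells (median 0.06), in pro-B cells (median -0.07) or in the difference of the effects (median 0.18). Ebf1 and Tcf3, which activate surrogate light chain genes, had log2 fold changes of -0.24 (SE 0.20) and 0.08 (SE 0.13) in small pre-B cells. Ikzf1 and Ikzf3, of the Ikaros family, had -0.06 (SE 0.10) and 0.03 (SE 0.18).

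The nearest genes on either side were also followed. Top3b, a topoisomerase gene 1635 bases from Vpreb1, was at 97.6 to 125 CPM in small pre-B KO libraries, 119 to 124 CPM in small pre-B controls, 95.9 and 90.4 CPM in pro-B KO libraries and 107 and 94.8 CPM in pro-B controls. It was not called in any comparison. On the other side of Igll1, Spag6 and the pseudogene Rpl31-ps12 had at most 22 counts in a library. Ppm1f, a phosphatase gene, fell with stage by 0.37 in controls and 0.31 in KO cells.

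Beside Vpreb2, Slc25a1, the mitochondrial citrate carrier, had 54.2 to 62.4 CPM with the knockout and 34.7 to 41.2 CPM in controls of small pre-B cells (0.62, SE 0.10, adjusted p = 0.0254, edgeR quasi-likelihood). With any 1 library left out, that call held only without small pre-B control 2 or 3. Dgcr6 and Prodh were called higher in small pre-B than in pro-B KO cells, by 0.93 and 0.51, and Dgcr14 was not called. Beside Vpreb3, Chchd10 rose in small pre-B cells by 1.39 in controls and 1.81 in KO cells, and Mmp11 by 1.10 and 1.39. Gm5134 rose by 1.496 and 1.45, and Zfp280b was called in KO cells alone, at 0.62.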

How the data were processed

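The authors deposited raw counts per gene, 1 file for each of 10 libraries. Per the file headers, featureCounts 1.4.3-p1 assigned reads to exons of an mm10 annotation without a strand setting, although the labels' library kit is a stranded one. No other gene in the files overlaps the 4 genes. CASAVA 1.82, STAR and mm9 appear in the submitters' processing notes, and positions are given in mm10. The header of small pre-B control 3 carries another number than its title.

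Counts were tested with edgeR 4.0.16 (R 4.3.3): filterByExpr (minimum count 10, minimum total 15), TMM scaling, 1 robust quasi-likelihood model with a mean for each of 4 groups over 10 libraries, and Benjamini-Hochberg adjustment over 14161 genes (threshold 0.05). The test was tried on simulated data. Levels are TMM-scaled CPM, and log2 profiles use a prior count of 2. Intervals are SD over libraries. Alternatives included DESeq2 1.42.0, other scalings, no filter, the compared groups alone, the title number as a block and libraries left out. Scaling to B lineage genes was added after seeing the data.

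The members and lists were chosen with earlier results of these data known. Named were the members, Mta2, the 2 nearest genes on each side and the 3 genes most like each member (predicted genes left out). Of the pathway list, the called genes with the smallest p in a comparison were named, and Ebf1 and Ikzf1 besides. The other called genes of that list are given as counts. Kit, Dntt and Il2ra were picked from the marker lists after their values were seen. Promoters are from RefSeq GRCm38.p6 and transcripts from GENCODE M21. Protein sequences were not used here. 1 gene of these lists is not reported here and is left out of their sums and counts. Samples of other genotypes that the series names were not analysed here.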

Additional observations from a re-analysis of the deposited data

How the results depend on the processing

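Of 358 values of the 4 genes under alternatives, 333 kept their direction and side of the threshold and 15 changed sign. Across the threshold, 12 became called, 3 of them with a change of sign, and 2 lost their call, 1 of them with a change of sign. Scaling to B lineage genes gave -2.87 (Igll1), -2.29 (Vpreb1), -2.96 (Vpreb2) and -0.0423 (Vpreb3) for the stages in controls, -1.815, -1.35, -1.69 and 0.26 in KO cells, and 0.203 (Igll1), 0.33 (Vpreb1) and 0.12 (Vpreb2) for the knockout in pro-B cells. Its shift of the median of all genes was -2.03 and -2.48 for the stages and 0.41 for the pro-B knockout. Library totals shifted the stage medians to -0.18 and -0.12 and gave 0.0165 for Vpreb3 in the small pre-B knockout. DESeq2 called Igll1 (1.26) and Vpreb2 (1.402) in the small pre-B knockout. The compared groups alone called Vpreb1 between KO stages (1.10). Without KO libraries 1 and 2, Vpreb3 was at 0.20 in the small pre-B knockout.

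With 1 library left out, the small pre-B knockout ranged from 0.88 to 1.68 (Igll1), 0.85 to 1.85 (Vpreb1), 0.96 to 1.77 (Vpreb2) and -0.11 to 0.17 (Vpreb3). The pro-B knockout ranged from -0.45 to 0.0625 (Igll1), -0.33 to 0.19 (Vpreb1), -0.36 to -0.20 (Vpreb2) and -1.08 to -0.44 (Vpreb3). The stages in controls ranged from -1.24 to -0.47 (Igll1), called at -1.24 without small pre-B control 1, -0.80 to 0.20 (Vpreb1), -1.28 to -0.48 (Vpreb2) and 1.80 to 2.16 (Vpreb3). In KO cells they ranged from 0.23 to 0.89 (Igll1), 0.69 to 1.37 (Vpreb1), 0.40 to 0.93 (Vpreb2) and 2.40 to 3.05 (Vpreb3).

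Counts of genes called in the pro-B knockout (5) were 8 with no filter, 181 with DESeq2, 856 with the compared groups alone, 14 with B lineage scaling, 0 without KO libraries 1 and 2 of small pre-B cells and 0 to 25 with 1 library left out. In the small pre-B knockout (428) they were 1821 with DESeq2, 0 with the compared groups alone, 173 with B lineage scaling, 0 without KO libraries 1 and 2 and 1 to 1667 with 1 left out. For the difference of effects (0) they were 56 with DESeq2 and 0 to 40 with 1 left out. For the stages they were 12476 (controls, of which 172 higher) and 13028 (KO, of which 89 higher) with B lineage scaling, and 5335 to 8086 and 4673 to 8657 with 1 left out. The causes were not tested.

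The labels used here do not say what the number in the titles marks. Deviations of same-numbered small pre-B libraries correlated across genes at 0.102, 0.155 and 0.045, each library best with its own number. In pro-B cells, where 2 libraries a group give 1 value, it was 0.015. With it as a replicate block, 0 genes were called in the pro-B and 153 in the small pre-B knockout, and no call of the 4 genes changed. The stages share no number. Vpreb2 in small pre-B control 3 rests on 46 counts, which limits its precision.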

Other observations

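Natural killer cell markers summed to 62.7 to 113 CPM in KO and 7.64 to 92.7 CPM in control libraries of small pre-B cells, against 274 to 429 CPM in the 4 pro-B libraries. Of the 5 erythroid markers, Hba-a1 and Hbb-b1 were at 0 in every library and the list summed to at most 14.6 CPM. Flt3, a receptor of early progenitors and dendritic cells that is in the pro-B stage list, was at 0.886 to 3.56 CPM in the 6 small pre-B libraries and 244 to 445 CPM in the 4 pro-B libraries.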
